A study of Caenorhabditis elegans with 6 samples.

Results

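The 10 genes described here code for proteins that pair and align homologous chromosomes in the meiosis of the nematode Caenorhabditis elegans. They are the pairing centre genes him-8, zim-1, zim-2 and zim-3, the chromosome axis genes him-3, htp-1, htp-2 and htp-3, and the synapsis genes syp-1 and syp-2. They were chosen by name, as 10 of the 46659 rows of the count table, and all 10 were among the 17365 rows with enough counts to be tested. RNA was sequenced from embryos of 2 genotypes with 3 biological replicates each. The 3 double mutants carried dot-1.1(knu339) together with ced-3(n1286), and the 3 single mutants, which served as controls, carried ced-3(n1286) alone. The ced-3 mutation was thus present in every library, and the nature of the knu339 allele is not stated in the labels. All animals were grown at 20 °C, and their eggs were released from adults with alkaline hypochlorite, so each library came from the pooled eggs of a population. DOT-1.1 corresponds to mammalian DOT1L, which methylates lysine 79 of histone H3, and CED-3 is the caspase of programmed cell death. The comparison concerns the effect of the dot-1.1 mutation on transcript levels in a ced-3 mutant background.

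In meiosis each chromosome has to find its homologue, line up with it along its length and exchange DNA. In C. elegans a region near an end of each chromosome, the pairing centre, is bound by a zinc finger protein of a single family and is tethered to the nuclear envelope, where movement brings homologues together. HORMA domain proteins build the axis of each chromosome, and the SYP proteins then form the central region of the synaptonemal complex, which holds paired axes together. These events take place in the gonad. Embryos carry maternal transcripts that were loaded into the oocyte, and they contain primordial germ cells, which do not enter meiosis before larval life.

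Library totals were 66316445 to 75279479 counts in the double mutants and 68832040 to 77957224 counts in the single mutants. Transcripts of dot-1.1 were present in every library, with 2144 to 3980 counts in those labelled double mutant and 2716 to 4516 counts in the single mutants, so this level does not check the labels (adjusted p = 0.806, edgeR). Of 22 genes that mark early zygotic expression in embryos, 20 passed the filter on low counts, with a summed level of 461 to 616 CPM (counts scaled to a common library size) in the double mutants and 615 to 676 CPM in the single mutants. Markers of adult yolk and adult cuticle summed to 3.65 to 4.15 CPM over 7 genes in the double mutants and to 1.33 to 2.26 CPM in the single mutants. Sperm markers summed to 5.65 to 6.46 CPM over 36 genes in the double mutants and to 5.21 to 5.53 CPM in the single mutants.

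The pairing centre genes are neighbours on chromosome IV (build WBcel235), where they lie on the plus strand within 16.9 kb, from base 10547086 to base 10563974. In this order, zim-1 (T07G12.6, from 10547086 to 10555513) is followed by zim-2 (T07G12.10, from 10555247 to 10558225), zim-3 (T07G12.11, from 10558715 to 10561429) and him-8 (T07G12.12, from 10561905 to 10563974). The annotated 5′ exon of zim-2 reaches into the 3′ exons of zim-1, so that 223 bases, or 11.02% of the exon bases of zim-1 and 9.46% of those of zim-2, belong to both. Between zim-2 and zim-3 lie 489 bases, and between zim-3 and him-8 lie 475 bases. The labels do not say how reads from the shared bases were assigned, so the counts of zim-1 and zim-2 are uncertain to that extent.

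**Figure D1:**
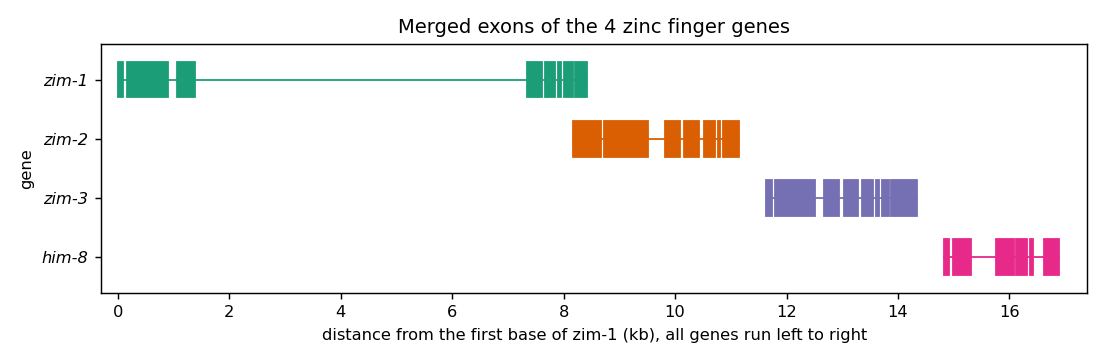
Merged exons (boxes) and introns (lines) of zim-1, zim-2, zim-3 and him-8, plotted by distance in kb from the first base of zim-1. The exons of zim-1 and zim-2 overlap by 223 bases, and gaps of 489 and 475 bases separate the other neighbours.

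Of the axis genes, 3 are also on chromosome IV: htp-1 (F41H10.10, minus strand, 5390189 to 5391557), htp-2 (Y73B6BL.2, plus strand, 6419522 to 6420898) and him-3 (ZK381.1, plus strand, 6977508 to 6978765). The fourth, htp-3 (F57C9.5), lies on chromosome I at 4827072 to 4829791. Both synapsis genes are on chromosome V, syp-1 (F26D2.2) at 16404274 to 16407701 and syp-2 (C24G6.1) at 5536487 to 5537717. The paralogues htp-1 and htp-2 are closely similar in sequence, and their merged exons measure 1229 and 1237 bases. Reads could be shared between these paralogues. Exons of syp-1 share 517 bases, or 16.9% of their length, with F13A7.14 on the same strand, and those of him-3 share 24 bases with prkl-1 on the other strand.

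All 10 genes were expressed at a moderate level. Their mean over the 6 libraries ran from 7.74 CPM (syp-2) to 19.8 CPM (syp-1), against a median of 9.15 CPM over all tested genes, and no library had fewer than 245 counts for any of them. Set per kilobase of merged exons, him-8 had the highest level in the double mutants, 9.89 ± 3.26 CPM per kb, against 13.2 ± 1.19 CPM per kb in the single mutants (SD, n = 3 each). The axis genes him-3, htp-1 and htp-2 came next, at 9.71, 8.57 and 7.99 CPM per kb in the double mutants and 13.1, 12.3 and 12.2 CPM per kb in the single mutants. The lowest level belonged to zim-3, with 3.85 ± 0.893 CPM per kb in the double mutants and 4.51 ± 0.423 CPM per kb in the single mutants (SD, n = 3 each). Thus him-8 and zim-3, which lie next to each other, were at opposite ends of the order.

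In that order no neighbouring genes in the double mutants differed by more than the larger of their SDs. In the single mutants the one larger step was that from htp-2 to syp-2, a gap of 3.17 CPM per kb. The axis gene htp-3 was at 4.22 ± 0.990 CPM per kb in the double mutants and 5.79 ± 1.69 CPM per kb in the single mutants (SD, n = 3 each), below the 3 other axis genes in both genotypes.

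**Figure D2:**
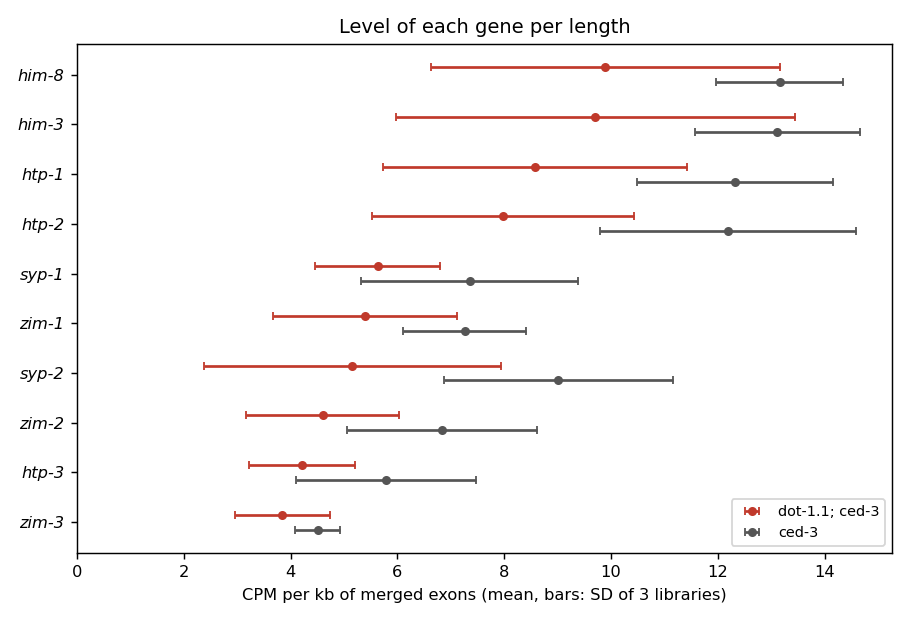
Level of each gene in CPM per kb of merged exons, as the mean and SD of 3 libraries, with dot-1.1; ced-3 above ced-3 for each gene. In both genotypes him-8 was highest and zim-3 lowest, and the double mutant mean was below the single mutant mean for all 10 genes.

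Transcripts of all 10 genes were lower on average in the double mutants, and lower in 3 of 3 pairs of same-numbered libraries, but few passed a test over all genes. In edgeR with genotype as the only term, 0 of the 10 genes were called at an adjusted p under 0.05. Over all genes 14 were called in this fit, or 0.0806%, all of them higher, and 0% were called lower. The fold change lay below 0 for all 10 genes and for 52.1% of all tested genes. At an unadjusted p under 0.05, 1 of the 10 genes (htp-2) was lower, against 4.5% of all tested genes, and DESeq2 without a block called 0 of the 10, against 0.559% of all genes called lower. With the replicate number as a block, zim-2 and htp-2 fell and the other 8 did not pass, against 1.45% of all genes called lower. DESeq2 with the block called 4 of the 10 lower (zim-2, htp-1, htp-2 and syp-2), against 6.3% of all genes. Both edgeR calls lie close to the threshold, with adjusted p of 0.0488 and 0.0499. At an unadjusted p under 0.05 with the block, 9 of the 10 were lower, all but zim-3, against 12.9% of all tested genes.

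The median log2 fold change of the 10 genes, double mutant over single mutant, was -0.45 without and -0.48 with the block, while over all tested genes it was -0.02 in both fits. Being lower in 3 of 3 pairs was found for 25.3% of all tested genes. A complete separation, with every double mutant library below every single mutant library, was found for 0 of the 10 genes and for 7.91% of all tested genes. These counts describe genes that share their libraries and are no independent replicates of each other. In bulk RNA, fewer cells of a type and less RNA per cell cannot be told apart.

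HIM-8 binds the pairing centre of the X chromosome, and males, which arise by loss of an X, are frequent in its mutants. The level of him-8 was 11.2, 16.98 and 9.08 CPM in double mutants 1, 2 and 3, against 16.2, 18.1 and 15.2 CPM in single mutants 1, 2 and 3. Double mutants 1 and 3 lay below every single mutant, and double mutant 2 lay among them. The mean was 12.4 ± 4.09 CPM in the double mutants and 16.5 ± 1.49 CPM in the single mutants (SD, n = 3 each), a log2 fold change of -0.41 ± 0.24 SE (adjusted p = 0.509, edgeR) and of -0.46 ± 0.16 with the block (adjusted p = 0.125).

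ZIM-1 serves the pairing centres of chromosomes II and III, ZIM-2 that of chromosome V, and ZIM-3 those of chromosomes I and IV. The level of zim-2 was 10.2, 14.5 and 7.88 CPM in the double mutants and 16.5, 20.1 and 11.7 CPM in the single mutants. Double mutants 1 and 3 were again below all single mutants, while double mutant 2 was above single mutant 3. Its within-pair log2 differences were the most even of the family, -0.70, -0.47 and -0.57, and the fall was -0.58 ± 0.13 SE with the block (95% interval -0.88 to -0.28). Without the block the same gene stood at -0.57 ± 0.27 SE with an adjusted p of 0.439 in edgeR.

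Its overlapping neighbour zim-1 was at 9.84, 14.8 and 8.11 CPM in the double mutants and 15.8, 16.3 and 12.03 CPM in the single mutants, with the same order of double mutants (2, 1, 3). The log2 fold change was -0.43 ± 0.25 SE without the block and -0.46 ± 0.15 with it (adjusted p = 0.51 and 0.116, edgeR). The smallest difference of the 10 genes was that of zim-3, with 6.81, 10.6 and 7.92 CPM in the double mutants and 10.08, 10.7 and 8.89 CPM in the single mutants. In pair 2 the zim-3 levels lay -0.013 apart on the log2 scale, and the log2 fold change of zim-3 was -0.23 ± 0.21 SE without and -0.25 ± 0.16 with the block (adjusted p = 0.672 and 0.38, edgeR).

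**Figure D3:**
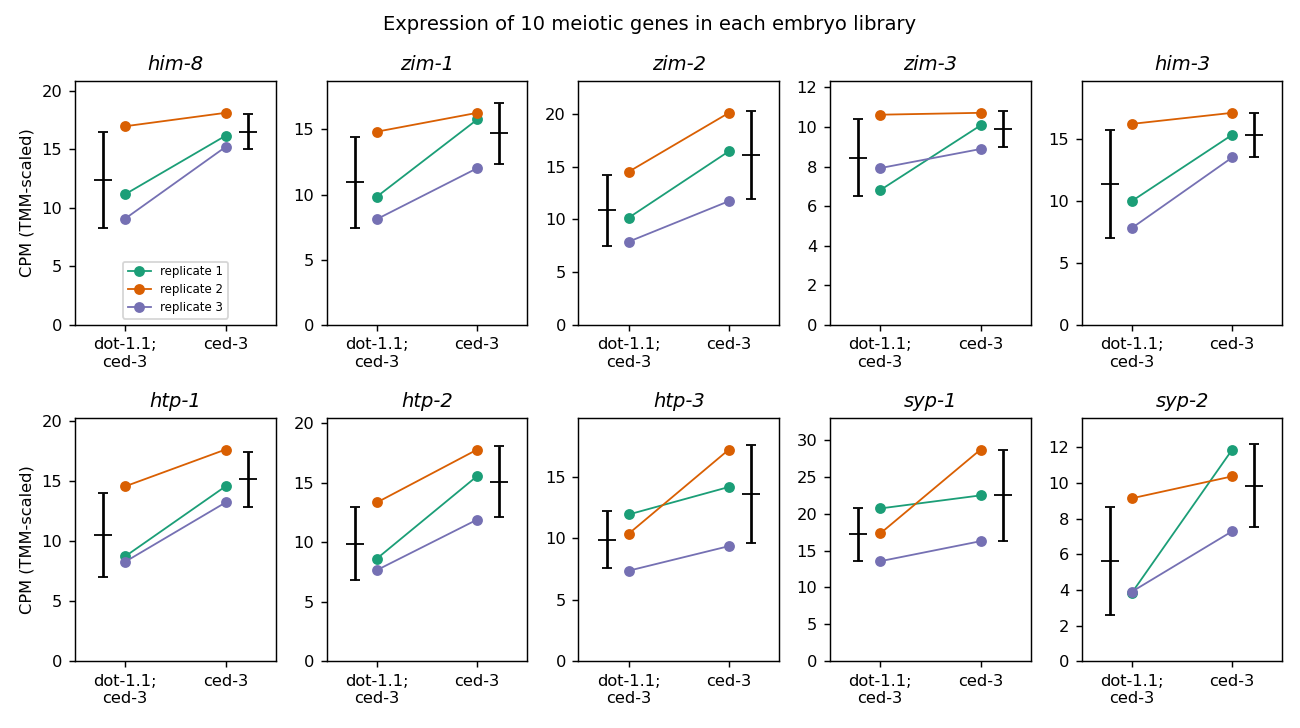
TMM-scaled CPM of each gene in every library, dot-1.1; ced-3 on the left and ced-3 on the right of each panel, with lines joining libraries of the same replicate number and black marks giving the mean and SD of 3 libraries. All lines slope upward to ced-3, and the genotypes overlap in every panel.

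HTP-3 is the axis protein that recruits HIM-3, HTP-1 and HTP-2, which together allow crossovers to form between homologues. The level of htp-2 was 8.63, 13.3 and 7.66 CPM in the double mutants and 15.6, 17.8 and 11.9 CPM in the single mutants. Only double mutant 2 reached into the range of the single mutants. Its mean was 9.88 ± 3.04 CPM in the double mutants and 15.1 ± 2.97 CPM in the single mutants (SD, n = 3 each), and it fell by 0.63 on the log2 scale with the block (SE 0.14). Without the block the log2 fold change of htp-2 was -0.61 ± 0.25 SE with an adjusted p of 0.389 in edgeR.

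The paralogue htp-1 was at 8.74, 14.6 and 8.29 CPM in the double mutants and 14.6, 17.6 and 13.2 CPM in the single mutants. It was the gene next below the threshold with the block, at -0.56 ± 0.15 SE (adjusted p = 0.0692, edgeR), and at -0.52 ± 0.25 without it (adjusted p = 0.436). Levels of him-3 ran from 7.82 CPM in double mutant 3 to 16.2 CPM in double mutant 2, and were 15.4, 17.1 and 13.5 CPM in the single mutants. Again double mutant 2 alone lay among the single mutants, and the log2 fold change of him-3 was -0.43 ± 0.26 SE without and -0.49 ± 0.16 with the block (adjusted p = 0.528 and 0.12, edgeR).

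The level of htp-3 was 11.9, 10.4 and 7.36 CPM in the double mutants and 14.2, 17.2 and 9.35 CPM in the single mutants. Here the lowest libraries were replicate 3 of both genotypes, and the largest within-pair difference, -0.73 on the log2 scale, was in pair 2, where syp-1 stood at the same value and the other 8 genes at -0.47 (zim-2) to -0.01 (zim-3). Its log2 fold change was -0.46 ± 0.27 SE without and -0.44 ± 0.15 with the block (adjusted p = 0.51 and 0.121, edgeR).

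SYP-1 and SYP-2 are coiled-coil proteins that depend on each other to load between paired axes. The level of syp-1 was 20.7, 17.3 and 13.6 CPM in the double mutants and 22.5, 28.7 and 16.3 CPM in the single mutants. As for htp-3, replicate 3 was lowest in both genotypes and pair 2 differed most, by -0.73 on the log2 scale. The log2 fold change of syp-1 was -0.39 ± 0.24 SE without and -0.37 ± 0.14 with the block (adjusted p = 0.531 and 0.167, edgeR). The overlapping gene F13A7.14 was at 13.6 ± 4.04 CPM in the double mutants and 15.9 ± 1.41 CPM in the single mutants (SD, n = 3 each).

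On the log2 scale syp-2 varied most of the 10 genes over the 6 libraries, with 3.85, 9.14 and 3.91 CPM in the double mutants and 11.9, 10.4 and 7.30 CPM in the single mutants. Double mutants 1 and 3 had less than any single mutant, while double mutant 2 was above single mutant 3. The within-pair log2 differences of syp-2 ran from -1.62 in pair 1 to -0.18 in pair 2. The average fold change was the largest of the 10 genes, -0.80 ± 0.36 SE without and -0.89 ± 0.27 with the block, and with this spread it did not pass (adjusted p = 0.422 and 0.106, edgeR).

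**Figure D4:**
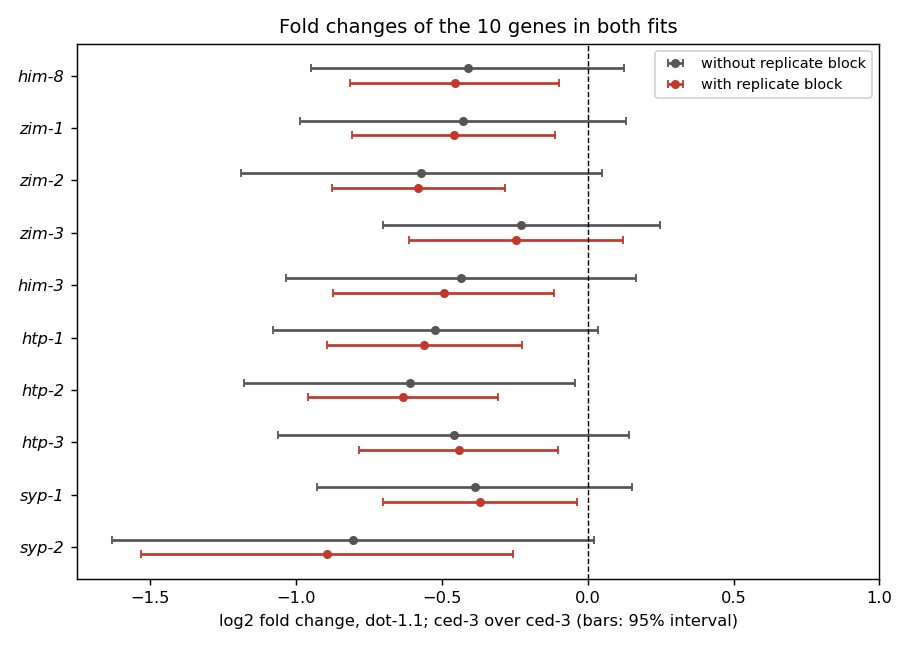
Log2 fold change of each gene, dot-1.1; ced-3 over ced-3, with its 95% interval in the fits without (grey) and with (red) the replicate block; the intervals are not adjusted for the number of genes tested. All 10 estimates lie below 0, and the interval excludes 0 for htp-2 without the block and for all genes but zim-3 with it.

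Whether related genes differed from each other was asked with the log2 ratio of their counts within a library, which does not depend on the scaling between libraries. The ratio of htp-2 to htp-1 averaged -0.086 ± 0.059 in the double mutants and -0.015 ± 0.12 in the single mutants (SD, n = 3 each; exact permutation p = 0.5). The call of htp-2 and the miss of htp-1 are therefore not shown to be a difference between the paralogues. The ratio of zim-2 to zim-3 averaged 0.34 ± 0.31 in the double mutants and 0.67 ± 0.26 in the single mutants, and the double mutant had the lower ratio in each of 3 pairs (exact permutation p = 0.3, n = 3 each). The ratio of syp-2 to syp-1 was -2.43, -0.92 and -1.79 in the double mutants and -0.92, -1.47 and -1.16 in the single mutants (exact permutation p = 0.3). In pair 2 it was higher in the double mutant, by 0.55, and in pairs 1 and 3 it was lower. For zim-2 to zim-1 and zim-2 to him-8 the double mutants were on average 0.12 lower on the log2 scale in both cases (exact permutation p = 0.3 and 0.5, n = 3 each). The 5 tests were two-sided, all 5 had an adjusted p of 0.5, and 3 against 3 libraries allow no p below 0.1.

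The 10 genes largely followed the same libraries. Single mutant 2 had the highest level for 9 of them, and single mutant 1 for syp-2. Double mutant 3 had the lowest level for 8 genes, and double mutant 1 for zim-3 and syp-2. The summed level was 102, 138 and 81.6 CPM in double mutants 1, 2 and 3, against 152.5, 174 and 119 CPM in single mutants 1, 2 and 3. Double mutant 2 was thus above single mutant 3. The genes htp-3 and syp-1 departed from the other 8 in that double mutant 1 stood above double mutant 2.

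Pair 2 differed least for 8 of the 10 genes, all but htp-3 and syp-1. Without pair 2, edgeR with the block called 7 of the 10 genes lower, against 6.39% of all genes, while zim-3, htp-3 and syp-1 did not pass (adjusted p = 0.212, 0.281 and 0.456). In that fit syp-2 had a log2 fold change of -1.26 ± 0.22 SE (adjusted p = 3.69e-05, edgeR) and him-3 one of -0.70 ± 0.17 SE (adjusted p = 0.00351). Pair 2 had the smallest difference for both genes, so leaving it out was bound to enlarge their mean fall. With only pairs 1 and 3 left, these p-values rest largely on the spread estimated over all genes. Without pair 1 or without pair 3 the block called 0 of the 10, with zim-2 and htp-2 at adjusted p of up to 0.267 and 0.279 (edgeR). The log2 fold changes were then -0.53 and -0.56 for zim-2, and -0.54 and -0.61 for htp-2.

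Lists of oocyte, germ cell and early zygotic markers had lower mean sums in the double mutants, as did the 10 genes. Few single markers of these lists passed the test. Mean sums of muscle (9443 against 6670 CPM), adult (3.90 against 1.87 CPM) and sperm markers (5.98 against 5.39 CPM) were higher in the double mutants. The largest part of the sperm sums was fer-1, with means of 2.41 CPM in the double mutants and 1.66 CPM in the single mutants. Of the 36 sperm markers 9 were tested. Of these 9, 4 lay below 0, against 52.1% of all tested genes, and 0 were called without or with the block. The sperm sums thus show no common direction of these markers. Oocyte and maternal transcripts, 26 genes of which 24 were tested, summed to 2216, 3323 and 2548 CPM in the double mutants and 3127, 3424 and 2999.7 CPM in the single mutants. The sum in double mutant 2 exceeded those of single mutants 1 and 3. The largest part of these sums was cav-1, with means of 1371 CPM in the double mutants and 1604 CPM in the single mutants. Of the 24 tested genes, 22 lay below 0, against 52.1% of all tested genes, but 0 were called without or with the block, and 8 were lower in 3 of 3 pairs, against 25.3% of all tested genes. The 16 genes of primordial germ cells and germ granules, of which 14 lay below 0 (52.1% of all tested genes did), summed to 579, 717 and 539 CPM in the double mutants and 743, 821 and 648 CPM in the single mutants. With the block, 2 of these 16 fell, against 1.45% of all genes called lower, namely nos-2 (-0.69 ± 0.13 SE, adjusted p = 0.0386, edgeR), a Nanos homologue required in the primordial germ cells, and iff-1 (-0.47 ± 0.095 SE, adjusted p = 0.04), a germline homologue of translation factor eIF5A. All 20 tested early zygotic genes lay below 0, and 1 fell with the block (52.1% and 1.45% of all genes did so), vet-6 (-0.45 ± 0.081 SE, adjusted p = 0.0313, edgeR). The median log2 fold change of the early zygotic genes was -0.42 without and -0.41 with the block, beside -0.45 and -0.48 for the 10 genes. It was -0.26 and -0.40 for the oocyte list, and -0.26 and -0.27 for the germ cell list.

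Muscle genes of late embryos went the other way. The 20 genes of this list summed to 12341, 7051 and 8938 CPM in the double mutants and 7471, 5590.0 and 6950 CPM in the single mutants, and 7 of them rose and 0 fell with the block, against 2.57% of all genes called higher. They included the myosin heavy chain genes myo-1 (1.45), myo-2 (1.67) and myo-3 (0.48), given as log2 fold changes with the block. Another myosin heavy chain gene, unc-54, did not pass (0.47 with the block, adjusted p = 0.189, edgeR). Of the 20 genes, 3 lay below 0 without the block (act-4, pat-10 and hsp-12.1), against 52.1% of all tested genes. The summed level of the list, though not that of every gene in it, was highest in double mutant 1 and lowest in single mutant 2. No marker gene of these 4 lists was at 0 in all libraries. The part that the stage or germ cell content of the eggs has in the levels of the meiotic genes was not tested.

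**Figure D5:**
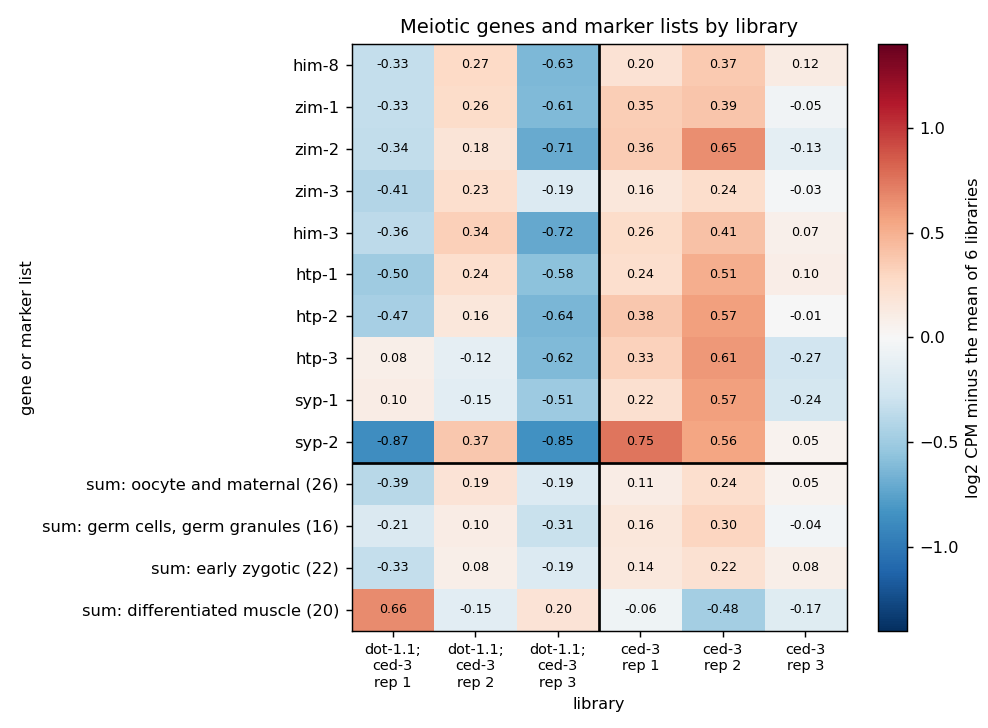
Log2 CPM of each gene in each library minus its mean over the 6 libraries, above the same for the summed level of 4 marker lists, with the 3 dot-1.1; ced-3 libraries on the left and the 3 ced-3 libraries on the right. Double mutants 1 and 3 are below their mean for 8 of the 10 genes and above it for differentiated muscle, and single mutant 2 is above its mean for all 10 and below it for muscle.

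Other genes of the meiotic machinery mostly lay below 0 as well, with a median nearer to 0, and none passed in edgeR with all 6 libraries. Of 68 other meiosis genes in 4 lists, all of them tested, 0 were called in edgeR without or with the block, against 0.0806% and 4.01% of all genes called in either direction. At an unadjusted p under 0.05 with the block, 20 of the 68 were lower, against 12.9% of all genes, and DESeq2 with the block called 8 lower and 1 higher, against 13% of all genes called. Their median log2 fold change was -0.15 without the block. Of the 68, 53 lay below 0, against 52.1% of all tested genes, and 29 were lower in 3 of 3 pairs, against 25.3%. The summed level of the 68 genes was 4765 ± 273 CPM in the double mutants and 4863 ± 141 CPM in the single mutants (SD, n = 3 each). The largest part of this sum was dhc-1, with means of 928 CPM in the double mutants and 855 CPM in the single mutants. Without the block, him-5 (-0.74) and dsb-2 (-0.61) lay further below 0 than the median of the 10 genes (-0.446). Slightly beyond this median were also skr-2 (-0.457), spo-11 (-0.451) and syp-3 (-0.450). Without pair 2, edgeR with the block called 10 of the 68 lower, against 6.39% of all genes.

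Among 6 further subunits of the synaptonemal complex, with a median of -0.18, the lowest p values belonged to skr-2, a Skp1-related subunit (-0.45 ± 0.11 SE with the block, adjusted p = 0.0589, edgeR), and syp-3 (-0.50 ± 0.16, adjusted p = 0.116). Without the block the central region genes syp-3, syp-4, syp-5 and syp-6 stood at -0.45, 0.02, -0.10 and -0.26. In the same fit syp-1 stood at -0.39 and syp-2 at -0.80. Among 14 cohesin and axis partner genes, with a median of -0.07, the lowest p belonged to pch-2, an ATPase that remodels HORMA domain proteins (-0.37 ± 0.092 with the block, adjusted p = 0.0625), and to its adaptor cmt-1 (-0.34 ± 0.095, adjusted p = 0.0824). The gene of the meiotic cohesin subunit REC-8, rec-8, was at 20.9 CPM in the double mutants and 21.98 CPM in the single mutants (log2 fold change -0.07, adjusted p = 0.894, edgeR).

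Among 12 kinases and movement genes, with a median of -0.10, fkb-6, an immunophilin gene, was higher (0.29 ± 0.087 with the block, adjusted p = 0.0947, edgeR) and prom-1, an F-box gene needed for pairing, was lower (-0.45 ± 0.15, adjusted p = 0.113). The kinase gene chk-2, whose product acts on the pairing centre proteins, was at 3.68 CPM in the double mutants and 3.61 CPM in the single mutants. Among 36 genes of break formation and crossover, with a median of -0.20, dsb-2 (-0.60 ± 0.14 with the block, adjusted p = 0.0556) and him-5 (-0.78 ± 0.20, adjusted p = 0.0692), both needed for meiotic double-strand breaks, had the lowest p. For dsb-2 every double mutant, at 11.2 to 13.02 CPM, lay below every single mutant, at 14.5 to 19.97 CPM, a separation seen in 7 of these 36 genes and in 7.91% of all tested genes.

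The genes most like the mean profile of the 10 over the 6 libraries were W03C9.5, T20D4.19, F43G9.13, toe-2 and C28C12.12, with Pearson correlations of 0.993 to 0.997. The points share their libraries and genotypes, and 5.62% of the other tested genes reached a correlation of 0.9, so a close match over 6 libraries was common. C28C12.12 was at 15.4, 23.7 and 13.5 CPM in the double mutants and 24.98, 30.8 and 20.8 CPM in the single mutants. Among the 10 genes the correlation with their own mean, which contains them, ran from 0.764 for syp-1 and 0.815 for htp-3 to 0.995 for htp-2.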

How the data were processed

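Whole-number read counts per gene, deposited by the authors with a column for each library, were used as given. Each column was matched to its sample by the description in the labels. Ribosomal RNA was depleted and libraries were strand-specific, per the labels' protocols. Per the submitters' processing notes, HISAT2 2.0.5, StringTie and the build WBcel235 were used. The program, annotation and strand setting of the counting step, and its handling of reads that map to several places, were not given in the sources used here. Names and coordinates came from RefSeq locus tags, which matched 45305 rows, and from Ensembl release 115, both on WBcel235.

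Genes were filtered with filterByExpr, scaled by TMM and tested with the robust quasi-likelihood test of edgeR 4.0.16 in R 4.3.3, with genotype as the sole covariate. Two-sided p-values were adjusted over all tested genes (Benjamini-Hochberg), and a gene with an adjusted p below 0.05 was called. TMM factors enter all CPM values. The SE is the fold change divided by the square root of its F statistic. Alternatives were other scalings, no filter, DESeq2 1.42.0, the replicate block, and leaving out libraries or pairs. The scripts were tested on simulated data. The labels number the replicates alike without naming a shared day. After subtraction of the genotype mean, same-numbered libraries correlated at 0.317, 0.295 and 0.464, and differently numbered libraries of opposite genotype at -0.341 to 0.036. All 3 were above 0.1, and on this evidence alone same-numbered libraries were treated as pairs. Because each genotype was centred on its own mean, positive values for some libraries force negative ones for others. The negative values are therefore no separate evidence of pairing, and all results with the block depend on it. Chi-square per degree of freedom between replicates was 98 to 190, so none agreed within sampling noise. That replicates are separate cultures is taken from the labels' word biological. P-values of edgeR and DESeq2 rest on the spread between these libraries, estimated with the help of all genes. With the block they rest on how the within-pair differences vary. The p-values of the ratios rest on reassigning libraries to genotypes.

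All 10 genes were named. From the other meiosis lists came genes called in either fit, or otherwise the 2 of each list with the lowest blocked p-values. The genes syp-4, syp-5, syp-6, skr-1, spo-11, rec-8, chk-2 and dhc-1 were added after their values were seen, as were those named from the marker lists. The genes and lists were chosen with earlier results of these data known. Intervals cover 95%.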

Additional observations from a re-analysis of the deposited data

How the results depend on the processing

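All 10 genes had a log2 fold change below 0 in each of their 15 alternative fits, the value nearest to 0 being -0.10 for zim-3. With the replicate block zim-2 (-0.58) and htp-2 (-0.63) passed the threshold and no other of the 10 calls changed, and DESeq2 with the block also passed htp-1 (-0.56) and syp-2 (-0.89) beside zim-2 (-0.58) and htp-2 (-0.63), so the count of lower genes among the 10 was 2 and 4 with the block, 0 without pair 1 or 3, 7 without pair 2 and 0 when a single library was left out. Leaving out 1 library gave log2 fold changes of -0.67 to -0.22 for him-8, -0.68 to -0.24 for zim-1, -0.80 to -0.37 for zim-2, -0.75 to -0.22 for him-3, -0.80 to -0.37 for htp-1, -0.85 to -0.45 for htp-2, -1.31 to -0.59 for syp-2, -0.39 to -0.10 for zim-3, -0.67 to -0.25 for htp-3 and -0.58 to -0.17 for syp-1; with the block and without pair 2 the first 7 of these stood at -0.64, -0.62, -0.64, -0.70, -0.71, -0.74 and -1.26 in this order and passed. Over all genes, 446 were higher and 251 lower with the block, 391 and 97 with DESeq2, 1035 and 967 with DESeq2 and the block, 26 and 0 with library totals alone, and 4 and 0 without a filter, against 14 and 0; leaving out 1 library gave 1 to 42 higher and 0 to 1 lower, and the block without pair 1, 2 and 3 gave 9, 1361 and 160 higher and 2, 1115 and 21 lower. Of the other meiosis genes, DESeq2 with the block had 1 higher and 8 lower, and the block without pair 2 had 10 lower. The cause of these shifts was not tested. The differences in ratio between related genes kept their sign but varied in size when a single library was left out. Without 1 library the difference ran from -0.14 to -0.017 for htp-2 to htp-1 (extremes without single mutants 3 and 1), -0.19 to -0.023 for zim-2 to zim-1 and -0.28 to -0.015 for zim-2 to him-8 (both without single mutants 3 and 2), -0.47 to -0.16 for zim-2 to zim-3 (without single mutant 3 and double mutant 3) and -0.93 to -0.18 for syp-2 to syp-1 (without double mutants 2 and 1). The mean over pairs, as a replicate block, equals the unpaired difference by construction (-0.07 for htp-2 to htp-1), and single pairs had the other sign for htp-2 to htp-1 (0.037, pair 3), zim-2 to him-8 (0.17, pair 3) and syp-2 to syp-1 (0.55, pair 2). Levels per kb moved by less than their SD with library totals or the longest transcript. With 245 or more counts per library, the spread between libraries and not counting error limits these comparisons.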
